A study of Mus musculus with 12 samples.

Results

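WT T cells stimulated with allogeneic antigen-presenting cells (APCs) were compared with WT T cells that received polyclonal stimulation. The 6 libraries, 3 for each stimulation, were chosen by their labels from the 12 libraries of a bulk RNA-Seq experiment. The other 6 libraries came from PERK-cKO T cells, which the labels call PERK-KO, under the same stimulations. T cells were purified from the spleens of C57BL/6 mice. PERK-cKO mice carried floxed alleles of Eif2ak3 and a Cre transgene under the CD4 promoter, which deletes PERK in T cells, whereas the WT mice did not lack PERK. Polyclonal stimulation used antibodies to CD3 and CD28, and allogeneic stimulation used splenocytes without T cells as APCs. Allogeneic cultures ran for 4 days, and sources differ on whether polyclonal cultures ran for 3 or 4 days, so the kind of stimulation and its length cannot be told apart. The mouse strain that gave the APCs for RNA-Seq, the age of the mice, their sex in each library, and any removal of APCs before RNA was extracted were not given in the sources used here, although the study as a whole used mice of both sexes. Nor was it stated whether the 3 libraries of a group came from separate mice, so p-values measure the spread between these libraries, which may be technical.

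Antibodies to CD3 and CD28 engage the T cell receptor complex and its main costimulatory receptor on nearly all T cells. Allogeneic APCs are instead recognised by the fraction of T cells whose receptors bind foreign MHC molecules, and they bring their own costimulatory ligands, cytokines and RNA into the culture. Type I and type II interferons act through STAT and IRF transcription factors on interferon-stimulated genes, whose products restrict viruses and load antigen. The integrated stress response starts with kinases that phosphorylate eIF2α, among them PERK at the endoplasmic reticulum (ER) and GCN2 upon amino acid shortage. It leads to translation of ATF4, a transcription factor that drives genes of amino acid synthesis and transport. ER-associated degradation (ERAD) removes misfolded proteins from the ER to the proteasome.

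The deposited table listed 53762 entries, each with a gene symbol and exon positions. The header of the table names an annotation of GRCm39 and the submitters' notes the build mm10 (GRCm38), so an entry's own symbol was not used. Its positions were instead laid unconverted on the exons of GRCm38 (GENCODE M21), and an entry was given to a gene when at least 50 bp of it fell on exons of that gene and of no other. In this way 13386 entries, with 50.4% of all counts, were placed on 10703 genes, of which 704 on chromosomes X and Y were left out. A gene's value therefore comes from a part of its exons (median 15.2% of exon bases) and may hold reads from beside them, and CPM, the counts per 1e+06 normalized counts of tested genes, are compared between libraries and not between genes. The 6 libraries held 3132702 to 4074099 counts in total and 1544037 to 2035708 placed counts on autosomes and mitochondrial DNA. A gene without a count could still have as many as 3 counts, 1.503 to 1.87 CPM in these libraries. Thy1, Lck and Cd5, which mark T cells, had counts in all 6 libraries. Many other defining T cell genes, among them Cd3e, Cd4, Cd8a and Trac, and the genes Ifng, Tnf, Csf2, Tbx21, Atf4, Ddit3 and Erlec1, had no placed entry and were not analysed here. Strand was not used in counting, so overlapping genes were not told apart, and members of the Ifi200, Trim30, Oas, Slfn, Ms4a4 and GTPase (Gvin) families may share reads.

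Several features of the libraries moved with the stimulation or stood apart. Of genes on chromosome Y, the sum over Uty, Kdm5d, Ddx3y and Eif2s3y was 3335, 3726 and 4716 counts in the WT allogeneic libraries and 0 counts in each of the other 9 libraries. The sex of the cells and the stimulation thus cannot be told apart. Gm42418, which overlaps ribosomal RNA sequence, took 12.3% of placed counts in polyclonal library 1, 1.34% and 1.02% in polyclonal libraries 2 and 3, and 0.458% to 0.654% in the allogeneic libraries. Eif2ak3, the deleted gene, had 169, 167 and 173 counts in WT allogeneic and 152, 118 and 85 counts in WT polyclonal libraries, against 155, 140 and 121 and 116, 76 and 92 counts in PERK-cKO libraries. Whether the counted stretches of Eif2ak3 include the deleted exons was not given in the sources used here, so these counts do not check the genotype labels.

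The 250 bases before a RefSeq start are shown for a few interferon-stimulated and ATF4 target genes. These lists had the highest and the lowest median difference of the pathway lists with at least 4 tested genes. Ifi203 and Vldlr had 2 such starts each, and 1 with a match is shown. The windows of Irgm2, Nupr1 and Vldlr lie wholly inside the GENCODE span of the gene. Sequences are RefSeq promoters of GRCm38.p6, 5′ to 3′ on the strand of the gene. Capitals mark matches to GAAANNGAAA, the core of the interferon-stimulated response element, in the first pair and to TGATGNAA, the core of the composite C/EBP and ATF4 site, in the other 3, searched on both strands.
Ifi203 (chr1:173942493-173942742, minus strand): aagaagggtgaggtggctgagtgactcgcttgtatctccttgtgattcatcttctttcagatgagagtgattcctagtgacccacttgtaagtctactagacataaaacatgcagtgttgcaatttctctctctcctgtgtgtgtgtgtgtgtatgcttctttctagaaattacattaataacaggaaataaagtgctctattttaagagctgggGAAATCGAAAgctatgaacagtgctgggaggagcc
Irgm2 (chr11:58214727-58214976, plus strand): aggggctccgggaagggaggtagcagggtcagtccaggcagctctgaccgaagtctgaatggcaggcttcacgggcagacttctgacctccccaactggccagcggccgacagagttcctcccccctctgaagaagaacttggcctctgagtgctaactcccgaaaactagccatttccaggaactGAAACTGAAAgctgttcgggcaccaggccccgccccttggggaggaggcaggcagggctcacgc
Asns (chr6:7693210-7693459, minus strand): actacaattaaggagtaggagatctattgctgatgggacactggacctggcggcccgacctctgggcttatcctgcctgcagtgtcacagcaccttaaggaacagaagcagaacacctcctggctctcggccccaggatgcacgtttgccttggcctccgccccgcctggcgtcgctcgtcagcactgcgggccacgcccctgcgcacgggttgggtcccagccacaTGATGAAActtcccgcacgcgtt
Nupr1 (chr7:126625471-126625720, minus strand): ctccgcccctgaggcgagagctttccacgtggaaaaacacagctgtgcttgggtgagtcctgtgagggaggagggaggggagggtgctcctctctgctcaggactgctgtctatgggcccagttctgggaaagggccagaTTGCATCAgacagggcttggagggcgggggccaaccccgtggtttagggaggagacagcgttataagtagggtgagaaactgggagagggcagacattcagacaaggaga
Vldlr (chr19:27216770-27217019, plus strand): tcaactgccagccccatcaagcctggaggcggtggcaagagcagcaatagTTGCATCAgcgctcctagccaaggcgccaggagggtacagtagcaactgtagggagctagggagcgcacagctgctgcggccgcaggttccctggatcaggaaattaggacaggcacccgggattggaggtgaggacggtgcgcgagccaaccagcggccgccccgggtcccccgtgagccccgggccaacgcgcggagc
In Nupr1 and Vldlr the match lay on the strand opposite to the gene. The match began 35 bases before the start in Ifi203, 64 in Irgm2, 23 in Asns, 110 in Nupr1 and 200 in Vldlr. Of 25 tested interferon-stimulated genes, 17 had a promoter in the table and 7 of these held GAAANNGAAA: Ifi203, Irgm2, Phf11b, Slfn5 and Slfn8, which were higher after allogeneic stimulation, and Oas3 and Trim30d, which were lower. Among all 2767 tested genes with a promoter, 93 (3.36%) held it. Of 12 tested ATF4 and integrated stress response genes, 10 had a promoter and 5 of these held TGATGNAA: Asns, Gars, Nupr1 and Vldlr, which were lower after allogeneic stimulation, and Slc7a11, which did not pass the test. Among all tested genes with a promoter, 69 (2.49%) held it. A match describes letters in this window and not a bound site.

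Of 3877 genes tested with edgeR's quasi-likelihood test, 1897 (48.9%) had a Benjamini-Hochberg adjusted p under 0.05. After allogeneic stimulation 958 genes (24.7%) were higher and 939 (24.2%) lower, and the median log2 fold change of all tested genes, allogeneic minus polyclonal, was -0.02. Among called genes 706 differed by more than 1 on the log2 scale, 284 of them higher and 422 lower. The ranges of the groups did not overlap for 2173 genes (56%). Counts of members of each list are read against these shares. A gene with few counts after either stimulation was tested only because of its counts after the other, which fixed its direction. Such members remain in the counts and medians of the pathway lists. When libraries were scaled to the summed counts of T cell receptor signalling genes, which were themselves higher after allogeneic stimulation, the median of all tested genes moved to -0.46. That sum rose mostly through Thy1 and Lck, whose values are given below, so the scaling rests largely on them. With this scaling 60.7% of tested genes were called, 9.85% higher and 50.9% lower, so that 16.2% of calls were higher, against 50.5% without it. Directions are therefore given relative to all tested genes, with each pathway list's counts under this scaling where they changed.

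**Figure D1:**
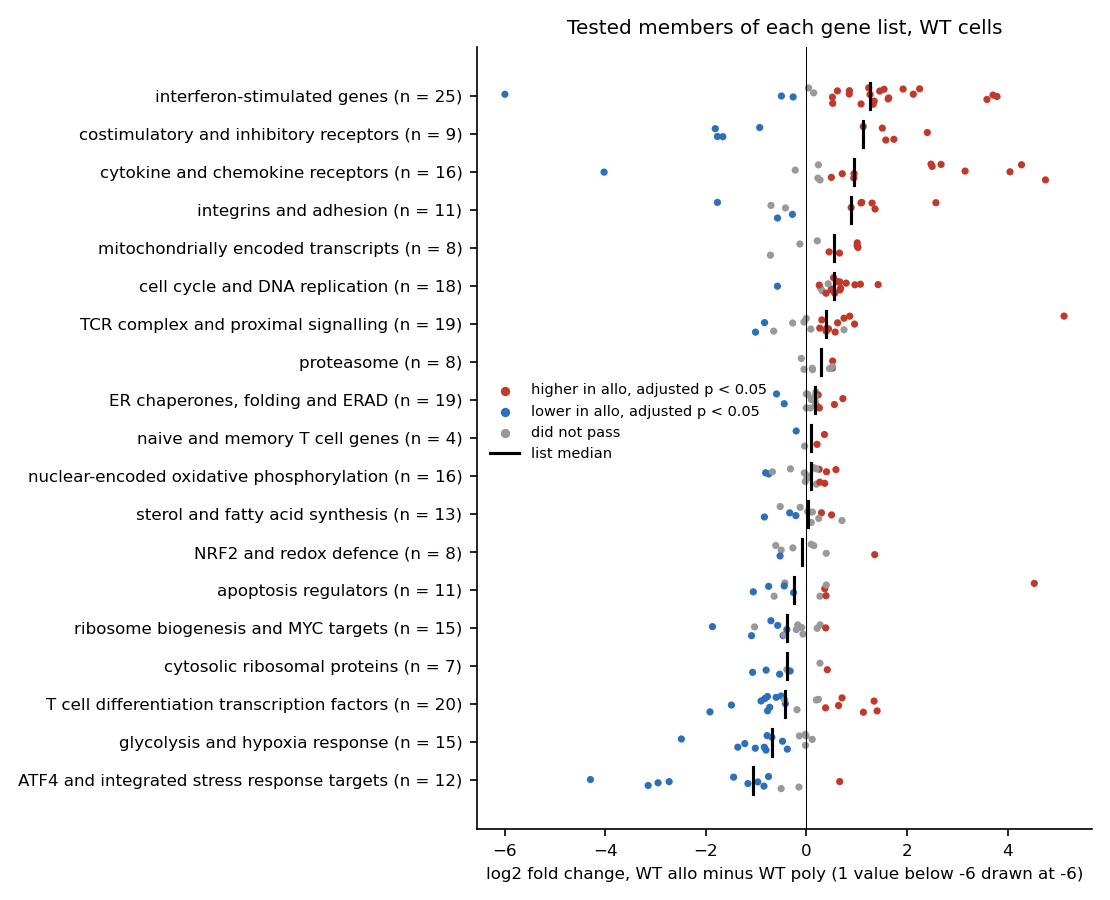
Log2 fold change (allogeneic minus polyclonal, x axis) of each tested member of the pathway lists with at least 4 tested genes (rows, with n), in WT cells. Points are genes, red when higher and blue when lower with an edgeR adjusted p under 0.05 and grey otherwise, and the black bar is the list median, from 1.26 for interferon-stimulated genes to -1.07 for ATF4 and integrated stress response targets. Trim30d, with 0 allogeneic counts, is drawn at the left edge.

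Summed markers of several other cell types were higher in the allogeneic libraries. Of the basophil and mast cell list, 7 of 14 genes were counted, and their summed level was 140.2 to 155 CPM after allogeneic and 3.72 to 7.47 CPM after polyclonal stimulation. The sums did not overlap for the macrophage and monocyte list either (11 of 26 counted, 319 to 363 against 123 to 146 CPM), the dendritic cell list (4 of 13 counted, 326 to 369 against 90.7 to 119 CPM), the B cell and MHC class II list (5 of 25 counted, 611 to 631 against 293 to 319 CPM) and the NK cell list (3 of 13 counted, 17.4 to 28.5 against 4.01 to 8.51 CPM). The NK cell sum was nearly all Klrd1, a gene of NK cells and CD8+ T cells (17.4 to 28.5 against 4.01 to 8.51 CPM). Neutrophil sums overlapped (2 of 13 counted, 3.11 to 4.07 against 0 to 5.34 CPM). Markers with few polyclonal counts were tested only because of their allogeneic counts, which fixed their direction, so tested markers are not tallied. Of those with more polyclonal counts, Blk, H2-Eb1 and H2-DMa of the B cell and MHC class II list and Ccl22 of the dendritic cell list were higher. H2-DMb1 of the B cell and MHC class II list overlapped between the groups and did not pass (0.71 ± 0.34 SE). The B cell and MHC class II sum was mostly H2-DMa, a chaperone of MHC class II loading (454 to 469 against 250.3 to 268 CPM), and Ctss, cathepsin S of antigen-presenting cells (183 to 210 against 99.7 to 114 CPM), was the larger part of the macrophage and monocyte sum. The dendritic cell sum rested on Ccl22, as Itgax, which encodes CD11c, had 2, 0 and 6 counts after allogeneic and 2, 3 and 11 counts after polyclonal stimulation, and Zbtb46, a dendritic cell transcription factor, 3, 3 and 9 and 13, 16 and 8. Counted T cell receptor signalling genes (20 of 35) summed to 9019 to 9078 CPM and 6564 to 6707 CPM, a rise that lay mostly in Thy1 and Lck. In bulk samples fewer cells of a type and less RNA per cell cannot be told apart.

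Lyz2, a lysozyme of macrophages and monocytes, measured 60.3, 44.8 and 57.1 CPM after allogeneic stimulation and 0 CPM in all 3 polyclonal libraries. With 3 counts per library as the limit, Lyz2 was at least 28.0-fold higher. Prss34, a serine protease of mast cells and basophils, measured 100.1, 89.6 and 89.8 CPM against 0, 1.002 and 0.534 CPM, a ratio of 178 with a 95% counting interval of 60.6 to 866. Its fitted value of 7.30 on the log2 scale was 8.11 without polyclonal library 2, which held 2 of its 3 polyclonal counts. Every allogeneic library was far above every polyclonal library for both genes. Ms4a1, which encodes CD20 of B cells, stood at 51.0, 57.0 and 68.7 CPM and 3.72, 5.01 and 4.80 CPM (log2 fold change 3.69 ± 0.25 SE). With 7, 10 and 9 polyclonal counts, it was tested only because of its allogeneic counts. Fcer1a and Gata2, an IgE receptor chain and a transcription factor of the basophil and mast cell lineage, were higher by 4.66 and 4.18 on the log2 scale, and without polyclonal library 1 Fcer1a was higher by 5.51. Ccl22, a chemokine of dendritic cells and macrophages, was higher by 1.78 ± 0.12 (SE), and Gpnmb, a macrophage glycoprotein, by 3.04 ± 0.20 (SE). Lst1, a transcript of myeloid and lymphoid leukocytes, was the tested macrophage marker that was lower (4.35, 7.56 and 5.28 CPM against 24.5, 12.02 and 18.7 CPM). Several defining markers were at or near 0, with Cd163 of macrophages, Ncr1 of NK cells and Sparc of stromal cells at 0 counts in all 6 libraries, and C1qc and Trem2 of macrophages, Mcpt4 of mast cells and Cd200r3 of basophils at 0 in all 3 polyclonal libraries.

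The regulatory T cell list summed to 505 to 517 CPM after allogeneic and 367 to 410.1 CPM after polyclonal stimulation. Of its tested genes Ikzf2, Lrrc32 and Gpr83 were higher and Ikzf4 was lower. Itgae, at 11, 18 and 16 allogeneic and 1, 6 and 1 polyclonal counts, was tested only because of its allogeneic counts. Foxp3 had no placed entry. Lrrc32, which encodes the TGF-β docking receptor GARP, was higher by 1.82 ± 0.11 (SE), and platelet integrin gene Itga2b by 3.13 ± 0.40 (SE). No tested member remained in the plasma cell and neutrophil lists, and the erythroid and platelet list had Itga2b alone. In the stromal and endothelial list Pecam1 was higher. Vwf had no polyclonal counts, which fixed its direction. Eng lay lower in every allogeneic library and did not pass (7.46, 3.49 and 8.45 CPM against 12.8, 13.5 and 10.7 CPM). The part of other cell types in the differences between the stimulations was not tested.

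**Figure D2:**
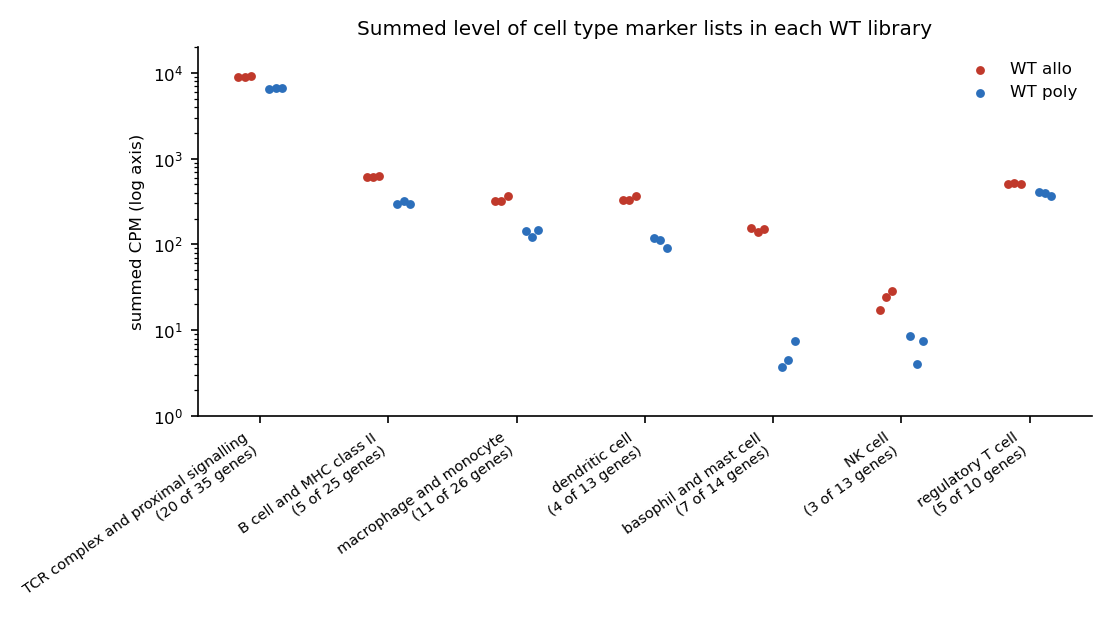
Summed CPM (log axis) of the counted genes of 7 cell type marker lists in each of the 6 WT libraries, as 1 point per library (red allogeneic, blue polyclonal). Basophil and mast cell markers stand at 140.2 to 155 CPM in the allogeneic and at 3.72 to 7.47 CPM in the polyclonal libraries, and the groups are apart in all 7 lists.

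Interferon-stimulated genes had the highest median of the pathway lists with at least 4 tested genes, below those of several marker lists. Of 25 tested members, 20 were higher, 3 lower and 2 did not pass, with a median log2 fold change of 1.26, where all tested genes had 24.7% higher, 24.2% lower and a median of -0.02. With Trim30d, a member with 0 allogeneic counts, at its bound the median was the same. Macrophage and monocyte markers moved with this list (319 to 363 against 123 to 146 CPM in sum), and their part in it was not tested. Ifi203 and Ifi204, DNA sensors of the HIN-200 family on chromosome 1, showed the highest folds of the list. Ifi203 measured 583, 525 and 572 CPM after allogeneic and 46.3, 36.1 and 39.0 CPM after polyclonal stimulation (log2 fold change 3.79 ± 0.11 SE, edgeR adjusted p = 1.7e-11). Ifi204 measured 106, 109 and 88.7 CPM and 9.57, 7.01 and 6.40 CPM (3.71 ± 0.20 SE). In both genes the lowest allogeneic library was several times the highest polyclonal one. Ifi214 and Ifi208, neighbours of the same family that were not in the list, rose by 5.501 and 5.38 on the log2 scale, and Ifi214 by 8.16 when entries had to lie at least 50% inside exons. The 4 genes lie within 0.423 Mb on chromosome 1 (chr1:173519717-173942672, GRCm38).

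Oas2, which makes the 2′-5′ oligoadenylates that activate RNase L, measured 36.7, 32.6 and 27.5 CPM and 0.532, 4.51 and 2.67 CPM, a log2 fold change of 3.59 ± 0.40 (SE). Without polyclonal library 2, the highest of its group, the value for Oas2 was 4.27. Slfn1, a Schlafen family gene linked to restraint of T cell growth, measured 208, 199.5 and 207 CPM and 37.8, 47.6 and 43.2 CPM (2.25 ± 0.11 SE). The groups were well apart in Slfn1 and in Irgm2, an immunity-related GTPase named here for its promoter match after its values were seen, at 497, 578 and 483 CPM and 203, 197 and 212 CPM (1.35 ± 0.09 SE). Psmb8 and Psmb9, the immunoproteasome subunits, had small differences of 0.52 ± 0.07 (SE) and 0.52 ± 0.08 (SE). Both calls were lost when scaled to T cell receptor signalling genes (0.08 and 0.07). Oas3 went the other way at 366, 370.0 and 339.7 CPM against 506, 515 and 498 CPM (-0.50 ± 0.08 SE, edgeR adjusted p = 0.00015). Trim25, the ubiquitin ligase of the RIG-I pathway, was lower (-0.27 ± 0.09 SE), and this call was lost without allogeneic library 2 (-0.18), polyclonal library 1 (-0.23) or polyclonal library 2 (-0.25). Trim30d, at 0 CPM in all allogeneic libraries, was the third member that was lower. Lgals3bp, a secreted glycoprotein, measured 332, 316 and 336 CPM and 318, 329 and 309 CPM, and the groups overlapped. Scaled to T cell receptor signalling genes, 15 members were higher and 5 lower.

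**Figure D3:**
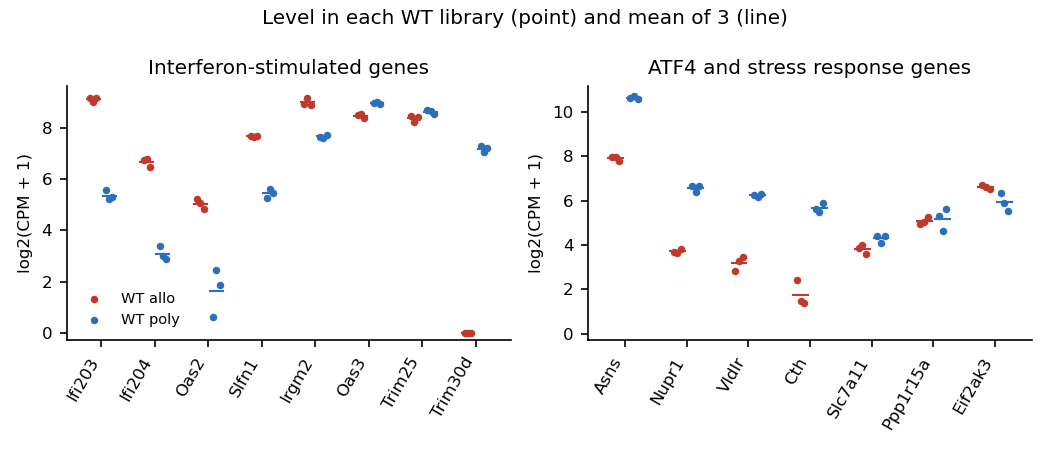
Level of 8 interferon-stimulated genes (left) and 7 ATF4 and integrated stress response genes (right) as log2(CPM + 1) in each WT library (red allogeneic, blue polyclonal), with a line at the mean of 3. Ifi203, Ifi204, Oas2, Slfn1 and Irgm2 are higher and Asns, Nupr1, Vldlr and Cth lower in every allogeneic library, whereas Trim30d is at 0 in all 3 allogeneic libraries.

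ATF4 and integrated stress response targets had the lowest median of the pathway lists with at least 4 tested genes, -1.07. Of 12 tested members, 9 were lower after allogeneic stimulation, 1 was higher and 2 did not pass, against 24.2% lower among all tested genes. Asns, asparagine synthetase, measured 254, 251 and 223 CPM after allogeneic and 1613, 1678 and 1539 CPM after polyclonal stimulation. Its log2 fold change was -2.73 ± 0.09 (SE, edgeR adjusted p = 3.7e-11), and the lowest polyclonal library was several times the highest allogeneic one. Cth, cystathionine γ-lyase, which makes cysteine, measured 4.35, 1.75 and 1.58 CPM and 48.4, 43.6 and 59.2 CPM (-4.30 ± 0.33 SE). Nupr1, a stress-induced transcription regulator, stood at 11.8, 11.6 and 13.2 CPM and 102, 82.1 and 102 CPM (-2.95 ± 0.18 SE). Vldlr, a lipoprotein receptor, stood at 6.22, 8.73 and 10.04 CPM and 75.5, 71.6 and 78.5 CPM (-3.15 ± 0.20 SE). Each of these genes was lower in all allogeneic libraries without overlap. The other lower members were Eif2ak4, which encodes GCN2, the amino acid transporter genes Slc3a2 and Slc1a5, Gars and Aldh18a1. Slc7a11, the light chain of the cystine transporter, was at 13.7, 15.1 and 11.1 CPM and 20.2, 16.03 and 20.3 CPM and did not pass (-0.50 ± 0.26 SE). Ppp1r15a, which encodes the eIF2α phosphatase subunit GADD34, was at 29.8, 32.0 and 37.0 CPM and 38.3, 24.0 and 48.0 CPM, and the groups overlapped. With libraries scaled to T cell receptor signalling genes, 0 members were higher and 11 lower.

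Eif2ak3, which encodes PERK, was the list's member that was higher. It measured 105, 97.1 and 91.4 CPM after allogeneic and 80.8, 59.1 and 45.4 CPM after polyclonal stimulation (log2 fold change 0.66 ± 0.17 SE, edgeR adjusted p = 0.0062). The groups did not overlap, but the gap between the lowest allogeneic and the highest polyclonal library was small. Without polyclonal library 3, the lowest, the value was 0.47, and scaled to T cell receptor signalling genes it was 0.22 and did not pass.

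Most genes of ER folding and ERAD did not pass. Of 19 tested members 5 were higher, 2 lower and 12 did not pass, and the median was 0.17. Edem1, which directs misfolded glycoproteins to degradation, measured 148, 147 and 124 CPM and 83.5, 86.6 and 82.7 CPM (0.72 ± 0.11 SE, edgeR adjusted p = 0.00012). Ube2j1, the ubiquitin-conjugating enzyme of ERAD, was higher by 0.56 ± 0.08 (SE), and Pdia4, Ube2j2 and Ssr1 were the other members that were higher. Sel1l, the adaptor of the HRD1 ubiquitin ligase, measured 148, 155 and 147 CPM and 219.7, 197 and 195 CPM, so that all allogeneic libraries were below the polyclonal ones (-0.44 ± 0.09 SE, edgeR adjusted p = 0.0017). Atf6, a sensor of ER stress, was at 70.2, 69.2 and 77.1 CPM and 105, 116 and 107 CPM (-0.60 ± 0.11 SE). Uggt1, the folding sensor for glycoproteins, did not pass at 0.17 ± 0.08 (SE). Without allogeneic library 2, polyclonal library 1 or polyclonal library 3, 3 members were higher in place of 5. Scaled to T cell receptor signalling genes, 1 member was higher and 11 were lower, which turned the balance of this list.

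T cell receptor signalling genes were higher more often than lower. Of 19 tested members 11 were higher, 2 lower and 6 did not pass, and the median was 0.39. Scaled to these genes themselves, 3 were higher and 5 lower. Txk, a Tec family kinase, had the largest fold of the list at 31.1, 40.7 and 26.4 CPM and 1.60, 0.501 and 0.534 CPM (5.13 ± 0.43 SE), and 5.80 without polyclonal library 1. Thy1, a surface protein of T cells, measured 3865, 4149.9 and 3955 CPM and 2249, 2199 and 2139 CPM (0.86 ± 0.08 SE, edgeR adjusted p = 8.8e-07). Lck, the kinase that starts T cell receptor signalling, named after its values were seen, measured 1494, 1301 and 1524 CPM and 885, 978 and 948 CPM (0.62 ± 0.08 SE), a call that this scaling ended (0.18). Cd27, a costimulatory receptor of the TNF receptor family, was higher by 0.96 ± 0.16 (SE). In the opposite direction, Cd5, an inhibitor of receptor signalling, measured 282, 307 and 279 CPM and 589.9, 601 and 563 CPM (-1.01 ± 0.08 SE), without overlap of the groups. Ptprc, which encodes CD45, the leukocyte common antigen, did not pass at -0.05 ± 0.07 (SE).

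All 9 tested costimulatory and inhibitory receptors passed, 5 higher and 4 lower, with a median of 1.13. Havcr2, which encodes the inhibitory receptor TIM-3, measured 106, 137 and 124 CPM after allogeneic and 36.7, 41.1 and 32.0 CPM after polyclonal stimulation (1.74 ± 0.14 SE, edgeR adjusted p = 4.3e-07). Slamf6, a receptor of the SLAM family, measured 115, 137 and 137 CPM and 53.2, 43.6 and 40.0 CPM (1.51 ± 0.14 SE). Entpd1, which encodes the ectoenzyme CD39, was higher by 1.58 ± 0.27 (SE), Cd38 was also higher, and Cd86, a ligand of CD28 carried mainly by APCs, was higher by 2.40 ± 0.37 (SE). B cell and dendritic cell markers moved with Cd86 (611 to 631 against 293 to 319 CPM and 326 to 369 against 90.7 to 119 CPM in sum), and their part in it was not tested. In the lower direction, Tnfrsf9, which encodes the costimulatory receptor 4-1BB of activated T cells, measured 208, 245 and 274 CPM and 855, 808 and 902 CPM (-1.81 ± 0.101 SE). Btla, an inhibitory receptor, measured 256, 211 and 233 CPM and 777, 704 and 735 CPM (-1.66 ± 0.09 SE). Slamf1, another SLAM family receptor, was lower (-0.93 ± 0.12 SE), and Cd44, an adhesion receptor of activated T cells, was lower as well. The groups were apart in all 4 genes.

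**Figure D4:**
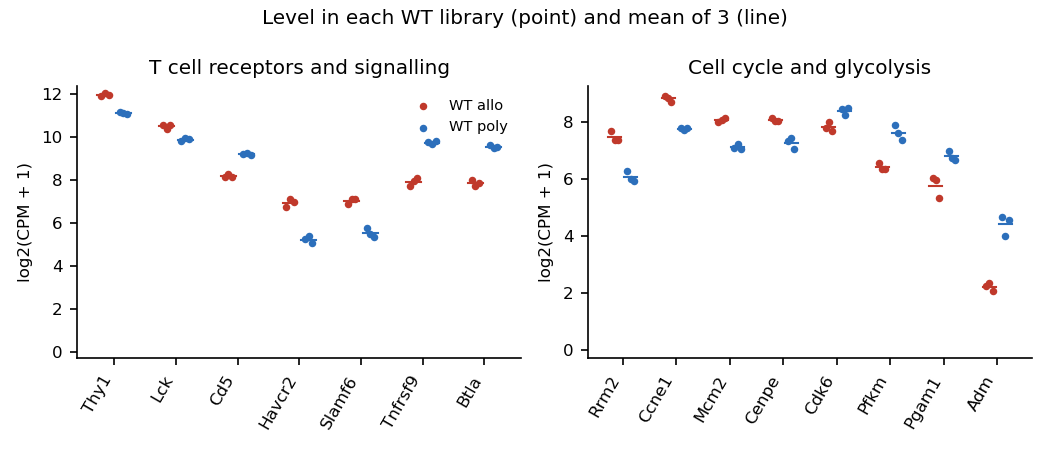
Level of T cell receptor signalling and costimulatory genes (left) and cell cycle and glycolysis genes (right) as log2(CPM + 1) in each WT library (red allogeneic, blue polyclonal), with a line at the mean of 3. Thy1, Lck, Havcr2, Slamf6, Rrm2, Ccne1, Mcm2 and Cenpe are higher and Cd5, Tnfrsf9, Btla, Cdk6, Pfkm, Pgam1 and Adm lower in every allogeneic library.

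Of 16 tested receptors for cytokines and chemokines, 11 were higher, 1 lower and 4 did not pass, with a median of 0.94 (10 higher and 2 lower when scaled to T cell receptor signalling genes). Csf2rb2, Csf2rb, Il18rap and Il18r1 were tested only because of their allogeneic counts, and Il12rb2 only because of its polyclonal counts. This fixed their directions, and the tally and median include them. Csf2rb2 and Csf2rb, the β chains of the receptors for IL-3, IL-5 and GM-CSF, which basophils, mast cells and myeloid cells carry, had large folds. Csf2rb2 measured 82.1, 76.2 and 72.9 CPM and 4.26, 1.503 and 2.67 CPM (4.76 ± 0.26 SE), and Csf2rb measured 69.6, 63.4 and 60.2 CPM and 3.19, 6.01 and 2.13 CPM (4.05 ± 0.27 SE). These genes moved with the basophil and mast cell markers, which summed to 140.2 to 155 against 3.72 to 7.47 CPM, and the part of these cells was not tested. Il18rap and Il18r1, the 2 chains of the IL-18 receptor, were higher by 4.28 ± 0.45 (SE) and 3.16 ± 0.46 (SE). Without polyclonal library 3 the value for Il18rap was 5.41. Il12rb2, the inducible chain of the IL-12 receptor on Th1 cells, was the member that was lower, and it was named after its values were seen. It measured 0.622, 0.582 and 0.528 CPM after allogeneic and 13.3, 12.02 and 5.87 CPM after polyclonal stimulation (-4.03 ± 0.61 SE), with 1 count in each allogeneic library, a ratio of 18.2 (95% counting interval 5.92 to 90.5). Ifnar2, a chain of the type I interferon receptor, did not pass at 0.23 ± 0.12 (SE), although without allogeneic library 1 its value of 0.33 did.

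Few cytokine and effector genes could be tested. Of the cytokine list Tnfsf14, which encodes LIGHT, was the single tested gene, at 120.0, 104 and 122 CPM and 308, 294 and 310.1 CPM (-1.40 ± 0.097 SE, edgeR adjusted p = 8e-08). Of the cytotoxic list 2 genes were tested: Klrd1, which encodes CD94 of NK cells and CD8+ T cells, was higher by 1.77 ± 0.33 (SE), and Srgn, the granule proteoglycan, did not pass. Of 4 tested naive and memory genes, Foxp1 (0.36 ± 0.0996 SE) and Satb1 (0.21 ± 0.08 SE), transcription factors of resting T cells, were higher and Il7r, the IL-7 receptor chain (-0.20 ± 0.08 SE), lower, all by small amounts. Scaled to T cell receptor signalling genes, 0 were higher and 3 lower, and Foxp1 and Satb1 turned to -0.08 and -0.23. The call of Satb1 was lost without allogeneic library 1 (0.22) or 2 (0.17) and without polyclonal library 1 (0.20) or 3 (0.16). That of Il7r was lost without any 1 of the 6 libraries, with values of -0.24 to -0.17.

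Transcription factors of T cell differentiation were lower more often than higher. Of 20 tested, 6 were higher, 10 lower and 4 did not pass, and the median was -0.43 (4 higher and 12 lower when scaled to T cell receptor signalling genes). Zeb2, a transcriptional repressor found in terminally differentiated effector cells, measured 18.7, 29.1 and 22.7 CPM and 88.8, 101 and 77.9 CPM (-1.92 ± 0.18 SE, edgeR adjusted p = 1.3e-06). Stat5a, which signals for IL-2 and IL-7, measured 66.5, 59.9 and 51.8 CPM and 169.7, 168 and 163 CPM (-1.49 ± 0.12 SE). Junb, an AP-1 subunit, was at 3354, 3231 and 3409 CPM and 5703, 5901 and 6144 CPM (-0.83 ± 0.08 SE). The groups were apart in these genes, and Stat3, Stat5b, Nfkb1, Nr4a1, Nr4a3, Ikzf4 and Irf8 were the other lower members. Fos, another AP-1 subunit, went up while Junb went down, at 34.2, 31.4 and 38.0 CPM and 15.96, 12.02 and 12.8 CPM (1.35 ± 0.22 SE). Ikzf2, which encodes Helios, was higher by 1.41 ± 0.11 (SE) and Nfatc1, a target and effector of calcineurin signalling, by 1.13 ± 0.097 (SE). Ikzf1, Ikzf3 and Nfkbiz were also higher.

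Cell cycle and DNA replication genes were higher in 14 of 18 tested members, lower in 1 and not passed in 3, with a median of 0.55. The share of all tested genes that were higher was 24.7%. Rrm2, the regulated subunit of ribonucleotide reductase, measured 208, 167 and 167 CPM and 76.6, 64.1 and 60.8 CPM (1.43 ± 0.13 SE, edgeR adjusted p = 1e-06). Ccne1, cyclin E1 of the G1/S transition, measured 488, 464 and 423 CPM and 221, 210.4 and 221 CPM (1.07 ± 0.09 SE). Mcm2, part of the replicative helicase, was higher by 0.96 ± 0.095 (SE), and Cenpe, a mitotic kinesin, by 0.79 ± 0.11 (SE). These genes did not overlap between the groups. Cdk6, a G1 kinase, was the lower member, at 219, 256 and 208 CPM and 351, 303 and 366 CPM (-0.58 ± 0.104 SE). Scaled to T cell receptor signalling genes, 4 members were higher and 1 lower.

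Apoptosis regulators were split, with 3 of 11 tested members higher, 4 lower and 4 not passed (median -0.26), and when scaled to T cell receptor signalling genes 1 was higher and 6 lower. Cdkn1a, which encodes the cell cycle inhibitor p21, measured 1469.6, 1629 and 1456 CPM and 2650.5, 2562 and 2461 CPM (-0.75 ± 0.08 SE, edgeR adjusted p = 3.9e-06). Casp4, an inflammatory caspase, measured 174, 245 and 239 CPM and 394, 347 and 632 CPM (-1.06 ± 0.19 SE), and Birc2 and Birc3 were the other members that were lower. Mcl1, an antiapoptotic BCL-2 family member, was higher by 0.36 ± 0.08 (SE), a direction that turned to -0.08 when scaled to T cell receptor signalling genes. Apaf1 was also higher, and Bcl2a1a, an antiapoptotic gene of a family with near-identical copies that was named after its values were seen, had a ratio of 27.5 (7.23 to 234). Its fitted value of 4.53 ± 0.68 (SE) was 7.11 without polyclonal library 2, which held all 2 of its polyclonal counts. Bcl2a1a was tested only because of its allogeneic counts, which fixed its direction within the 3 higher members.

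Glycolysis and hypoxia genes were lower in 10 of 15 tested members, higher in 0 and not passed in 5, with a median of -0.69, and when scaled to T cell receptor signalling genes all 15 were lower. Pfkm, a phosphofructokinase, measured 93.9, 81.4 and 80.8 CPM and 236, 199 and 164 CPM (-1.23 ± 0.14 SE, edgeR adjusted p = 6.8e-06). Pgam1, phosphoglycerate mutase, measured 64.7, 61.1 and 39.6 CPM and 127, 106 and 100.3 CPM (-1.02 ± 0.17 SE). Adm, adrenomedullin, a target of hypoxia-inducible factors, was at 3.73, 4.07 and 3.17 CPM and 24.5, 15.03 and 22.9 CPM (-2.49 ± 0.36 SE). All allogeneic libraries lay below all polyclonal ones for the 3 genes.

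Mitochondrially encoded transcripts were higher in 5 of 8 tested members, and 3 did not pass (median 0.55), whereas when scaled to T cell receptor signalling genes 3 were higher and 1 lower. Together the mitochondrial genes took 18.98% to 21.9% of placed counts after allogeneic and 14.01% to 17.9% after polyclonal stimulation. mt-Nd1 and mt-Nd3, subunits of complex I, were higher by 1.01 ± 0.15 (SE) and 1.01 ± 0.17 (SE), and mt-Cytb of complex III by 1.02 ± 0.14 (SE, edgeR adjusted p = 3.5e-05). mt-Nd2 and mt-Co2 were the other members that were higher. mt-Co1 of complex IV did not pass at 0.22 ± 0.13 (SE), but it did without polyclonal library 3 (0.35) or without a filter on low counts (0.22). The ribosomal RNA mt-Rnr2 measured 7487, 9346 and 9975 CPM and 18289, 3994 and 7086 CPM (-0.13 ± 0.37 SE), and without polyclonal library 1, which stood apart also in Gm42418, its value was 0.69 and passed. Nuclear-encoded subunits of oxidative phosphorylation were higher in 5 of 16 tested members (Ndufa5, Cox5a, Cyc1, Sdhb and Ndufa10), lower in 2 (Uqcrc2, -0.81 ± 0.24 SE, and Ndufb4) and not passed in 9, with a median of 0.08. The call of Uqcrc2 was lost with DESeq2 (-0.80, adjusted p = 0.074), and its value was -3.35 when an entry had to share 100 bp with exons. The count of higher nuclear members was 2 or 3 without allogeneic library 2 or 3 or without any 1 of the polyclonal libraries. Scaled to T cell receptor signalling genes, 0 of these nuclear genes were higher and 8 lower.

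Sterol and fatty acid genes had 2 of 13 higher and 3 lower (median 0.04). Sc5d, a sterol desaturase of cholesterol synthesis, was among the higher ones (0.50 ± 0.099 SE, and 0.06, not passed, when scaled to T cell receptor signalling genes). The lower ones were Abca1, Acly and Scd2, a stearoyl-CoA desaturase at 4288, 4228 and 3973 CPM against 5301, 5394 and 5032 CPM (-0.33 ± 0.08 SE). Without polyclonal library 1, 1 sterol gene was higher and 1 lower. Ribosome biogenesis and MYC targets had 1 of 15 higher, Ranbp1, and 6 lower, among them Nop14, a factor of small subunit assembly (-1.87 ± 0.25 SE), with a median of -0.39. Cytosolic ribosomal proteins had 1 of 7 higher, Rplp0, and 4 lower, among them Rps27a, Rps20 and Rps26 (median -0.39). The call of Rplp0 was lost without allogeneic library 2 or 3 or polyclonal library 1. In the proteasome list 2 of 8 members were higher and 0 lower, the interferon-inducible Psmb8 and Psmb9 given above (median 0.29). NRF2 and redox genes had 1 of 8 higher, Prdx1 (1.36 ± 0.41 SE), whose call was lost without polyclonal library 2 (1.16), and 1 lower, Sod2, the mitochondrial superoxide dismutase (-0.52 ± 0.14 SE), with a median of -0.09. Prdx1 was named after its values were seen. With libraries scaled to T cell receptor signalling genes, 0 members of these 5 lists were higher, and 6 sterol and fatty acid, 12 ribosome biogenesis, 5 ribosomal protein, 3 proteasome and 4 redox genes were lower.

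Integrins and adhesion genes had 6 of 11 tested members higher and 3 lower, with a median of 0.89 (5 higher and 5 lower when scaled to T cell receptor signalling genes). Pecam1, which encodes CD31 of endothelial cells, platelets and leukocytes, measured 421, 373 and 413 CPM and 153, 164 and 152 CPM (1.36 ± 0.09 SE, edgeR adjusted p = 5.1e-08). Itga6, the laminin receptor chain, was higher by 1.31 ± 0.27 (SE), and Itgae, Cd9, Jaml and Vim were also higher. Itgal, the α chain of LFA-1, measured 158, 161 and 152 CPM and 229.8, 247 and 224 CPM (-0.58 ± 0.09 SE), below the polyclonal libraries in all 3 allogeneic ones, and Cd44 and Itgav were lower too.

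Most of the largest increases, beyond genes given above, were in genes with few or no polyclonal counts. Ms4a4b, a T cell gene of the CD20-like family, was an exception and measured 863, 1096 and 1059 CPM and 21.3, 20.03 and 15.5 CPM (5.73 ± 0.14 SE, edgeR adjusted p = 3.4e-12). Zan, zonadhesin of sperm, measured 109, 81.4 and 88.7 CPM and 0.532, 0.501 and 0 CPM, a ratio of 266 (95% counting interval 73.2 to 2203). With chromosomes X and Y left out, it was also the single gene whose WT allogeneic libraries stood above all other 9 libraries, by at least 8-fold with 1 CPM added and at 8 CPM or more, and its PERK-cKO libraries held 2, 0 and 6 counts after allogeneic and 1, 1 and 1 after polyclonal stimulation. Ctsg, cathepsin G of neutrophils, mast cells and basophils, and Col6a4, a collagen VI chain, had 0 counts in the polyclonal libraries and were at least 22.8-fold and 7.59-fold higher. Cdh1, E-cadherin, had a ratio of 129 (22.7 to 5133) on 1 polyclonal count, in polyclonal library 1, without which its fitted value moved from 6.53 to 8.35, and Gm14085 one of 199 (54.6 to 1648) on 2. Art2a-ps, an ADP-ribosyltransferase pseudogene, was higher by 4.80 ± 0.32 (SE), and by 5.67 without polyclonal library 1.

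The largest decreases included genes at or near 0 in the WT allogeneic libraries alone. Trim30d, a member of the interferon-inducible Trim30 family, had 0 counts in all 3 WT allogeneic libraries and 297, 264 and 282 counts in the WT polyclonal ones, so it was at least 70.9-fold lower. In PERK-cKO cells it had 624, 601 and 410 counts after allogeneic and 243, 142 and 194 counts after polyclonal stimulation. Gm15133, an antisense transcript with 31, 23 and 28 polyclonal counts and 0 allogeneic counts, was at least 6.18-fold lower. Gm1966, annotated as an unprocessed pseudogene, measured 11.2, 14.5 and 8.98 CPM and 261, 236 and 264 CPM (-4.45 ± 0.15 SE). Gm4759, another unprocessed pseudogene, went in the opposite direction at 675, 795 and 812 CPM and 23.4, 30.6 and 28.8 CPM (4.78 ± 0.12 SE). These 4 genes lie within 2.29 Mb of chromosome 7 (chr7:104315019-106604035, GRCm38). Gm10709, a processed pseudogene on chromosome 9 (chr9:7751725-7752204, GRCm38), fell from 1344, 1302 and 1403 CPM to 31.1, 34.9 and 27.5 CPM (-5.44 ± 0.11 SE). Together Trim30d, Gm15133, Gm1966 and Gm10709 were the genes outside chromosomes X and Y whose WT allogeneic libraries stood below all other 9 libraries by 8-fold or more with 1 CPM added to each value, a measure that does not hold to the limit of 3 counts and was chosen after the values were seen.

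AI506816, a non-coding transcript of chromosome 5 (chr5:23698296-23712667, GRCm38), was the single gene outside these chromosomes whose WT polyclonal libraries stood above all others by that measure, at 6012, 7062 and 5825 counts against 153, 218 and 192 counts in WT allogeneic and 170 to 502 counts in PERK-cKO libraries (-4.93 ± 0.12 SE for the WT comparison). Mgll, monoacylglycerol lipase, measured 4.97, 5.82 and 2.64 CPM and 154, 154 and 119.5 CPM (-4.99 ± 0.23 SE), and Lad1, ladinin of basement membranes, 1.24, 0 and 1.06 CPM and 53.2, 49.6 and 46.4 CPM (-5.90 ± 0.39 SE). Rtkn, rhotekin, had a ratio of polyclonal to allogeneic counts of 76.7 (20.9 to 639), Slc17a6, a vesicular glutamate transporter, of 72.6 (12.7 to 2904) and Loxl2, a lysyl oxidase, of 25.4 (8.41 to 126), with 1 to 3 allogeneic counts each. Leaving out the library with these counts moved the fitted values of Rtkn, Slc17a6 and Loxl2 to -8.78, -7.67 and -7.74. Gm36266, an antisense transcript, was lower as well (-4.24 ± 0.48 SE).

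The same comparison in PERK-cKO cells used other libraries and called 2098 of 4051 genes (51.8%). Of 3741 genes tested in both genotypes, 1118 were called in both, which is 60.9% of the WT calls and 59.3% of the PERK-cKO calls tested in both, and 884 of these (79.1%) went the same way. The interaction of genotype and stimulation, tested over all 12 libraries, called 1466 of 4285 genes (34.2%), with the WT difference above that of PERK-cKO in 748 (17.5%) and below it in 718 (16.8%). Since only the WT allogeneic libraries held Y-linked counts, the interaction and the sex of the cells cannot be told apart. Asns was lower after allogeneic stimulation in both genotypes (-2.73 in WT, -2.40 in PERK-cKO), and Eif2ak3 was higher in both (0.66 and 0.54). Neither of these differences passed the interaction test (edgeR adjusted p = 0.056 and 0.67).

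Among lists with at least 4 tested genes, cell cycle genes had the highest share of members that passed the interaction test. The interaction was above 0 in 15 of 18 members and below 0 in 1. After allogeneic stimulation 14 of these genes were higher and 1 lower in WT, whereas 1 was higher and 11 lower in PERK-cKO cells, where 27.7% of all tested genes were higher and 24% lower. Ccne1 was higher by 1.07 in WT and lower in PERK-cKO cells (-0.56). The difference between the genotypes was 1.66 ± 0.12 (SE, edgeR adjusted p = 8.4e-10). T cell receptor signalling genes had 11 of 19 members with an interaction above 0 and 0 below. Interferon-stimulated genes had 2 of 28 above and 14 below, and 26 of 28 were higher in PERK-cKO and 0 lower. Integrated stress response genes had 1 of 12 above and 5 below. Vldlr stood at -3.15 in WT, a called decrease, and at 0.56 in PERK-cKO, which did not pass (interaction -3.69 ± 0.39 SE), and Slc7a11 was at -0.50 in WT and higher by 2.42 in PERK-cKO (interaction -2.90 ± 0.27 SE). Sel1l stood at -0.44 in WT and at 0.07, not passed, in PERK-cKO (interaction -0.49 ± 0.16 SE, edgeR adjusted p = 0.018). Of the markers, Ccl22 (1.78 in WT, 2.48 in PERK-cKO) and H2-DMa (0.85 and 2.28) were higher in both genotypes, and both interactions were below 0 (-0.67 ± 0.15 SE and -1.40 ± 0.12 SE). By the 8-fold measure given above for Zan, 50 genes stood high in the PERK-cKO allogeneic libraries alone, Lyz2 and Prss34 among them. Lyz2 had 1983, 2106 and 1643 counts there against 97, 77 and 108 in WT allogeneic libraries. Prss34 had 5251, 4154 and 3341 against 161, 154 and 170. Neither gene passed the interaction test. The part of these other cells in the interaction was not tested.

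Of genes called in WT without overlap of the groups and with an average log2 CPM of at least 3, the most negative interactions beyond Trim30d, Gm15133 and Gm1966 were in C3, Kifc3 and Aif1. C3, the central complement component, had 13, 10 and 10 counts in WT allogeneic and 41, 48 and 55 counts in WT polyclonal libraries, against 261, 253 and 220 and 4, 8 and 3 in PERK-cKO libraries (interaction -7.51 ± 0.39 SE, edgeR adjusted p = 1.1e-12). Aif1, a calcium-binding protein of macrophages, had 8, 9 and 9 and 23, 26 and 26 counts in WT and 90, 96 and 41 and 8, 2 and 1 counts in PERK-cKO (-5.64 ± 0.58 SE). In both genes the allogeneic libraries were the lower ones in WT and the higher ones in PERK-cKO. Kifc3, a minus-end kinesin, was lower in WT (-3.60), had few counts in PERK-cKO and an interaction of -5.82 ± 0.86 (SE). The most positive ones were those of Zan (6.54 ± 1.73 SE), Scg3, a secretory granule protein (3.69 ± 0.64 SE), Psg20 of the pregnancy-specific glycoproteins (3.65 ± 0.57 SE), Gm4759 (3.296 ± 0.24 SE), Gm8221, an unprocessed pseudogene (3.07 ± 0.63 SE), and Ly6k (2.99 ± 0.44 SE). Scg3, Psg20 and Ly6k were low, with 23, 23 and 28, 26, 36 and 32 and 18, 32 and 35 counts in the WT allogeneic libraries.

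**Figure D5:**
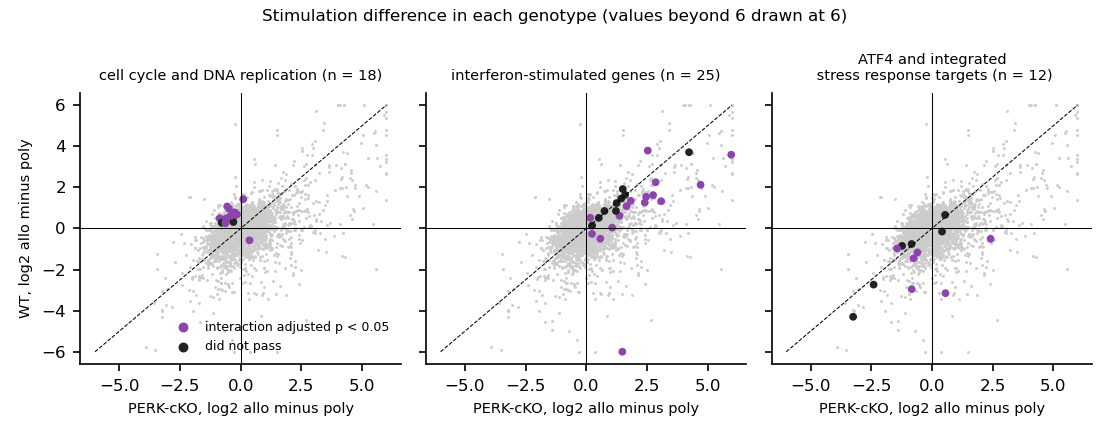
Log2 fold change, allogeneic minus polyclonal, in PERK-cKO (x axis) and WT cells (y axis) for genes tested in both, with all genes in grey and list members in purple (interaction edgeR adjusted p under 0.05) or black. Cell cycle genes lie mostly above the dashed line of equal change, at positive WT and negative PERK-cKO values, and Vldlr and Slc7a11 lie furthest below it among integrated stress response genes. Values beyond 6 are drawn at 6.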

How the data were processed

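RNA was sequenced in bulk from WT and PERK-cKO T cells after each stimulation, in 3 libraries per group. The authors counted read pairs over exons with featureCounts (version 2.0.1, no strand option) and deposited raw counts per gene symbol, with no normalization. The file header names GENCODE M27 (GRCm39), whereas the submitters' processing notes name mm10. The aligner was not given in the sources used here. Printed positions were laid unconverted on exons of GRCm38 (GENCODE M21), small RNAs aside, and counts were summed under the gene found there, since a mismatch of builds would give an entry another gene's reads.

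Genes kept by filterByExpr were TMM-normalized, and the quasi-likelihood test of edgeR 4.0.16 (R 4.3.3) was applied, with Benjamini-Hochberg adjustment over all tested genes. A test on simulated counts preceded the WT comparison and the interaction, and none was run for the comparison in PERK-cKO cells. CPM values are per 1e+06 TMM-scaled counts of tested genes. Alternatives included DESeq2 1.42.0. Counting intervals (95%, Clopper-Pearson) and the limit of 3 counts cover counting error only. Replicate libraries differed beyond sampling noise.

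Named genes were the 12 largest changes each way at an average log2 CPM of at least 3 without overlap of groups, up to 4 each way and 2 not passed per list, cell type markers, products measured in the study, and 6 interactions each way. Lck, Irgm2, Il12rb2, Bcl2a1a and Prdx1 were added after their values were seen, and members named without values add to the counts of their lists. Some genes of these lists are not reported here. The genes, the 21 pathway lists and the 10 marker lists were chosen with earlier results of these data known.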

Additional observations from a re-analysis of the deposited data

Results flagged for a closer look

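Genes described in the report whose stimulation difference differed between WT and PERK-cKO cells by the interaction test (edgeR adjusted p under 0.05) are listed here with that value, WT minus PERK-cKO on the log2 scale. Of all tested genes 34.2% passed this test. Only the WT allogeneic libraries held Y-linked counts, so these values and the sex of the cells cannot be told apart. Groups of 3 libraries were not tested for an outlying library.

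Among T cell and costimulatory genes the value was above 0 for Thy1 (0.60), Lck (0.80), Cd27 (0.81), Txk (1.74), Ptprc (0.49), Slamf6 (1.79), Havcr2 (1.33), Klrd1 (1.35), Il18r1 (2.58) and Ms4a4b (2.65). It was below 0 for Cd86 (-1.72), Slamf1 (-1.22), Tnfrsf9 (-0.66), Tnfsf14 (-1.98) and Csf2rb (-1.49).

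Among transcription factors it was 0.59 for Foxp1, 0.67 for Ikzf2, 0.78 for Nfatc1, -0.55 for Junb and -2.44 for Zeb2. Cell cycle and apoptosis genes included Ccne1 (1.66), Mcm2 (1.48), Rrm2 (1.35), Cenpe (1.06), Cdk6 (-0.91), Cdkn1a (-1.77), Casp4 (-1.58) and Mcl1 (-0.81).

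Interferon-stimulated genes included Ifi203 (1.28), Psmb8 (0.38), Irgm2 (-0.46), Lgals3bp (-0.999), Oas2 (-2.35), Oas3 (-1.05), Slfn1 (-0.58) and Trim25 (-0.47). Stress response and ER genes included Nupr1 (-2.10), Slc7a11 (-2.90), Vldlr (-3.69), Atf6 (-0.62), Sel1l (-0.49) and Ube2j1 (0.36).

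Metabolic and biosynthetic genes included Adm (-3.99), Pfkm (-0.91), mt-Cytb (0.52), Sc5d (0.44) and Nop14 (-0.86). Srgn of secretory granules was at -1.45. Markers of other cells included Itgax (-5.23, at few counts in WT), Ctss (-1.70), Ccl22 (-0.67), Gpnmb (-2.65), H2-DMa, a chaperone of MHC class II loading (-1.40), and Pecam1 (-0.48).

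Among genes named as further members of their lists, the value was below 0 for Abca1 (-2.50), Apaf1 (-0.47), Birc2 (-0.90), Birc3 (-0.71), Cd9 (-1.19), Eif2ak4 (-0.67), Gpr83 (-1.71), H2-Eb1 (-2.30), Ikzf4 (-0.89), Itgav (-0.65), Rps20 (-0.59), Slc3a2 (-0.55), Slfn5 (-1.73) and Stat5b (-0.59). It was above 0 for Cox5a (0.69), Cyc1 (0.55), Gars (0.49), Ikzf1 (0.76), Ndufa10 (0.58), Nr4a3 (0.58), Ranbp1 (0.68), Rplp0 (1.06), Ube2j2 (0.50) and mt-Nd2 (0.77).

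The remaining genes were among the largest changes. Values below 0 were those of Trim30d (-12.60), Gm15133 (-8.12), C3 (-7.51), Gm1966 (-7.11), Kifc3 (-5.82), Aif1 (-5.64), Gm36266 (-5.05), Gm10709 (-5.05), Rtkn (-4.91), Mgll (-4.25), AI506816 (-3.49), Loxl2 (-3.09) and Lad1 (-2.35). Values above 0 were those of Zan (6.54), Scg3 (3.69), Psg20 (3.65), Gm4759 (3.296), Gm8221 (3.07), Ly6k (2.99) and Art2a-ps (1.42). For Trim30d and Gm15133, at 0 in the WT allogeneic libraries, the value depends on the prior count of the fit and is no bound.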

How the results depend on the processing

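The WT comparison called 1897 genes. Other normalizations, DESeq2, filters, an overlap of 100 bp, all 12 libraries in 1 fit, chromosomes X and Y kept, and Gm42418 and mitochondrial genes left out (an alternative chosen after seeing the data) gave 1581 to 2354 calls. Leaving out 1 library gave 1685 to 1815. The count moved further, to 558, when entries had to lie at least 50% inside exons, which left 1010 tested genes, to 4262 with entries taken as listed, and to 706 beyond a log2 fold change of 1. The interaction gave 1154 to 1499 calls under its alternatives, against 1466, and 1313 to 1404 without 1 library.

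Replicate numbers did not pair the samples, since the deviations of same-numbered libraries correlated at -0.008, -0.020 and 0.081. With the replicate block the WT comparison called 1912 genes and the interaction 1418.

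Over 118 named genes and their alternatives, 1933 of 1986 values kept direction and side of the threshold, 34 lost the call, 9 gained it and 10 reversed. Scaling to T cell receptor signalling genes reversed Lgals3bp (-0.40), Ifnar2 (-0.21), Uggt1 (-0.27), mt-Co1 (-0.23), Foxp1 (-0.084), Mcl1 (-0.078) and Satb1 (-0.23), by its construction a shift of all genes downward. Without 1 polyclonal library Ppp1r15a ranged from -0.39 to 0.076 and mt-Rnr2 from -0.51 to 0.69, and mt-Rnr2 was 0.16 with the replicate block. Neither gene passed in the comparison as reported, and the cause was not tested. Scaling to T cell receptor signalling genes ended the calls of Eif2ak3, Lck, Psmb8, Psmb9, Sc5d, Ube2j1 and Prdx1, and Ppp1r15a (-0.59), Slc7a11 (-0.94) and Ptprc (-0.49) passed with it. DESeq2 ended the calls of Il7r, Satb1, Trim25, Prdx1 and Uqcrc2, and scaling to library size alone those of Il7r, Satb1 and Trim25. Il7r and Satb1 also lost theirs with no filter, Il7r with all 12 libraries in 1 fit, and Satb1 with 10 counts required in every library or with chromosomes X and Y kept. Calls were gained by mt-Co1 with the replicate block (0.23) or no filter (0.22), Uggt1 in the fit of 12 libraries (0.20) and Ptprc with entries at least 50% inside exons (-0.23). Genes with no placed entry could not be compared, and a gene at 0 could hold up to 3 counts at this depth.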
